A study of Danio rerio with 17 samples.

Results

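The genes for the receptors of GABA and glycine were followed through the cells of the larval zebrafish optic tectum (OT). They are the 34 genes of 25432 in the count tables whose names begin with *gabr*, *gabbr*, *glra* or *glrb* in either case. Of these, 18 code for subunits of the GABA-A receptor, 6 for its rho subunits, 3 for the GABA-B receptor and 7 for the glycine receptor. The rule used names and no measured value, but it was chosen with earlier results of these data known. The cells came from untreated wild-type larvae, of the TL strain by the study's methods, at 6 days post fertilization (dpf, 4 batches: 5, 6, 7 and 10) or 7 dpf (7 batches: 1 to 4, 8, 11 and 12). A batch pooled the dissected tecta of several larvae, with the torus longitudinalis attached, so that single larvae could not be compared. Droplet capture tagged each RNA molecule at its 3′ end with a unique molecular identifier (UMI), and the batch, not the cell, was the replicate.

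Of 87881 barcodes with 287221630 UMIs, 52920 passed the limits of 600 to 4000 genes, 7500 UMIs and 10% mitochondrial UMIs. After removal of 1151 cells with transcripts of neighbouring tissues and 5940 doublets, 45829 cells were left. The batches held 5073733 to 88294858 UMIs. Among passing cells, 343 barcode sequences occurred in 2 or more lanes, with a median of 3 for the 66 pairs of lanes. The clusters were rebuilt without the receptor genes and held 38023 neurons, 18867 of them in the excitatory arm (*slc17a6a* or *slc17a6b*) and 13385 in the inhibitory arm (*gad1b*). The neurons also held 286 torus longitudinalis-like cells and 1042 cells of neither arm, 58.4% of the latter from a single batch. Cells left out of these classes for the opposite transmitter gene stayed among the neurons (2735 excitatory, 1642 inhibitory and 66 torus longitudinalis-like). Batch 8 gave 53.2% of the 1273 radial glia-like cells, and batch 10 gave 27.6% of the neurons. The neuronal gene *elavl3* had a UMI in 84.1% of neurons, but also in 51.6% of microglia-like and 55.7% of erythrocyte-like cells. These 2 classes, which should lack neuronal genes, served as the background. For *gabra6a* the microglia-like cells were not read as background, since their level (0.622 per 10000 UMIs over all cells) was above that of neurons (0.0474). Counts of members above both background classes thus do not settle *gabra6a*.

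GABA-A and glycine receptors are chloride channels built of 5 subunits around a pore that opens when the transmitter binds. Alpha, beta and gamma or delta subunits form most GABA-A receptors, rho subunits form channels best known from the retina, and glycine receptors combine alpha subunits with a beta subunit that ties them to the scaffold protein gephyrin. GABA-B receptors are pairs of G protein-coupled proteins, one that binds GABA and a partner that signals, and they act more slowly, on both sides of the synapse. In the tectum, GABA from local interneurons shapes the visual responses of both excitatory and inhibitory cells.

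**Figure D1:**
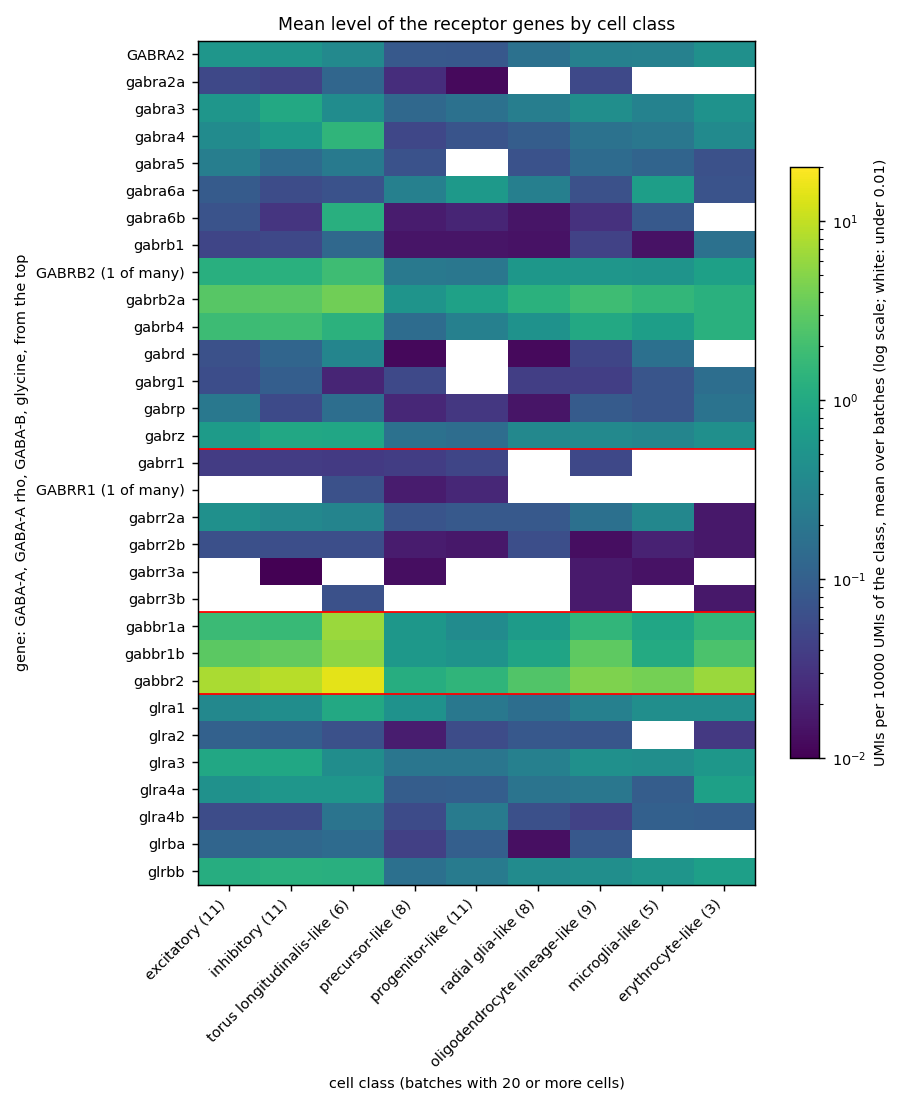
Mean level of the receptor genes reported singly in each cell class, in UMIs per 10000 UMIs of the class, on a log colour scale, as the mean of those batches in which the class had 20 cells or more. Neurons are shown by arm and as torus longitudinalis-like cells. Over all neurons, which are not a column here, *gabbr2* had the highest level (7.99 per 10000), and the rho genes *gabrr3a* and *gabrr3b* lay at or below 0.01.

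Transcripts of all 3 families were found in neurons. All levels are given as UMIs of a gene per 10000 UMIs of the class in a batch, as mean ± SD over batches. Capture at the 3′ end does not count per length, and its efficiency differs between genes, so the order of genes is an order of UMIs. In neurons, the 24 GABA-A genes with the rho genes summed to 13.9 ± 4.95 per 10000 (SD, n = 11 batches), with a range of 5.22 to 22.1. The 3 GABA-B genes reached 12.8 ± 5.82 (SD, n = 11), ranging from 4.58 to 22.1, and the 7 glycine receptor genes 3.24 ± 1.18 (SD, n = 11), ranging from 1.69 to 5.48. The means of the first 2 families thus lay within each other's spread, and the mean glycine sum was below both. The cells of neither arm, counted among the neurons, had a GABA-A sum of 6.39 ± 5.58 (SD, n = 9).

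The signalling partner of the GABA-B receptor, *gabbr2*, had the highest level of all members. It was lowest in neurons of batch 6, at 2.40 per 10000, had a median of 7.41 and was highest in batch 11, at 15.3. The genes of the GABA-binding partner were *gabbr1b*, at 3.02 ± 1.35 per 10000 (SD, n = 11), and *gabbr1a*, at 1.75 ± 0.585 (SD, n = 11). These are separate genes in zebrafish and not the splice forms that bear similar names in mammals. The level of *gabbr2* exceeded that of *gabbr1b* in the means, but their ranges overlapped, with *gabbr1b* reaching 5.37.

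Among the subunits that make the GABA-A channel, the beta gene *gabrb2a* led, at 2.82 ± 1.11 per 10000 (SD, n = 11). Another beta gene, *gabrb4*, was at 1.80 ± 0.634 (SD, n = 11), and their spreads overlapped. A further gene, listed as *GABRB2* (1 of many), was at 1.2 ± 0.601 (SD, n = 11). Its listed name marks it as one of several copies, and reads shared with *gabrb2a* could have been lost or split, so both levels are uncertain to that extent.

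In the next range were *gabrz*, which codes for the zeta subunit of fish, at 0.752 ± 0.315 per 10000 (SD, n = 11), *gabra3* at 0.732 ± 0.495 (SD, n = 11), *GABRA2* at 0.520 ± 0.278 (SD, n = 11) and *gabra4* at 0.47 ± 0.205 (SD, n = 11). The rho gene *gabrr2a* reached 0.401 ± 0.155 (SD, n = 11). Neighbours in this order overlapped in their spread.

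The alpha genes *gabra5* (0.209), *gabra6a* (0.0868), *gabra6b* (0.0810) and *gabra2a* (0.0520) were low, as were *gabrp* (0.147), *gabrd* (0.0901), *gabrg1* (0.0763) and *gabrb1* (0.0491), each as the mean UMIs per 10000 of 11 batches. The rho genes *gabrr2b* and *gabrr1* lay at 0.0610 and 0.0395, and *gabrr3a*, *GABRR1* (1 of many) and *gabrr3b* did not exceed 0.0206 in any batch. Of the last 3, 131, 81 and 82 UMIs were counted in all 38023 neurons.

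For glycine, the beta gene *glrbb* was the highest, at 1.18 ± 0.528 per 10000 (SD, n = 11), and the other beta gene *glrba* reached 0.123 ± 0.0464 (SD, n = 11). Of the alpha genes, *glra3* led with 0.921 ± 0.329 (SD, n = 11), before *glra4a* with 0.483 ± 0.238 (SD, n = 11) and *glra1* with 0.371 ± 0.141 (SD, n = 11). The alpha genes *glra2* and *glra4b* were at 0.106 ± 0.0464 and 0.0593 ± 0.0428 (SD, n = 11). The spread of *glrbb* and *glra3* overlapped.

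Levels differed between batches. The mean of neurons in batches 10 to 12 was above that in batches 1 to 8 for 31 of 34 members, and for 12 members each of the 3 later batches exceeded every earlier one. The GABA-A sum was 11.7 ± 3.17 per 10000 (SD, n = 8) in the earlier and 19.9 ± 3.52 (SD, n = 3) in the later batches, and the GABA-B sum 9.84 ± 3.26 (SD, n = 8) and 20.6 ± 2.65 (SD, n = 3). The later batches were, by elimination, those run on another sequencing instrument, and instrument, batch and date cannot be told apart. Batch 6 was the lowest for 21 of 34 members. Tests between classes were therefore made within batches, while shares of cells were pooled over batches.

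Whether a UMI marks a cell that expresses the gene depends on depth and on free RNA. Unthinned, 14 members had a UMI in at least 10% of neurons, and 18 did so in at least 1 class, among them *gabbr2* (68.1% of neurons), *gabbr1b* (47.8%), *gabrb2a* (39.5%) and *gabrb4* (34.2%). The median was 1999 UMIs in neurons, 2391 in microglia-like and 1515.5 in erythrocyte-like cells. When each cell was thinned to 1000 UMIs, with 3966 shallower neurons left out, the shares fell to 52.4% for *gabbr2*, 29.8% for *gabbr1b*, 24.5% for *gabrb2a* and 18.5% for *gabrb4*. After thinning, 71.7% of neurons had a UMI of any GABA-A gene, 68.6% of any GABA-B gene and 27.9% of any glycine receptor gene, and 10.0% had none of the 34.

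The background was not small. The shares were pooled over batches, and the largest single batch gave 53.5% of erythrocyte-like cells, 23.7% of microglia-like cells and 27.6% of neurons. The part of this batch mix in the differences between shares was not tested. After thinning, *gabbr2* had a UMI in 18.5% of microglia-like and 35.0% of erythrocyte-like cells, and *gabrb2a* in 12% and 13.8%. In neurons, 6 members lay above the exact (Clopper-Pearson) 95% intervals of both background classes, which cover counting error only. Among them were *gabbr2*, *gabbr1b*, *gabrb2a* and *glrbb*. In inhibitory neurons *gabra3* joined them, with 12.3% against 2.12% of microglia-like and 5.42% of erythrocyte-like cells. The share for *gabrb4* in neurons, 18.5%, stood beside 13.8% in erythrocyte-like cells, whose interval reached it. In microglia-like cells, 6 members were listed at 0 among 219 cells (*glrba*, *glra2*, *gabrr1*, *GABRR1* (1 of many), *gabra2a* and *gabrr3b*), which allows a share of cells with a UMI of up to 1.37%. In 230 erythrocyte-like cells, *gabrr1*, *gabrd*, *GABRR1* (1 of many), *gabra2a*, *gabra6b* and *gabrr3a* were at 0, which allows up to 1.3%.

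**Figure D2:**
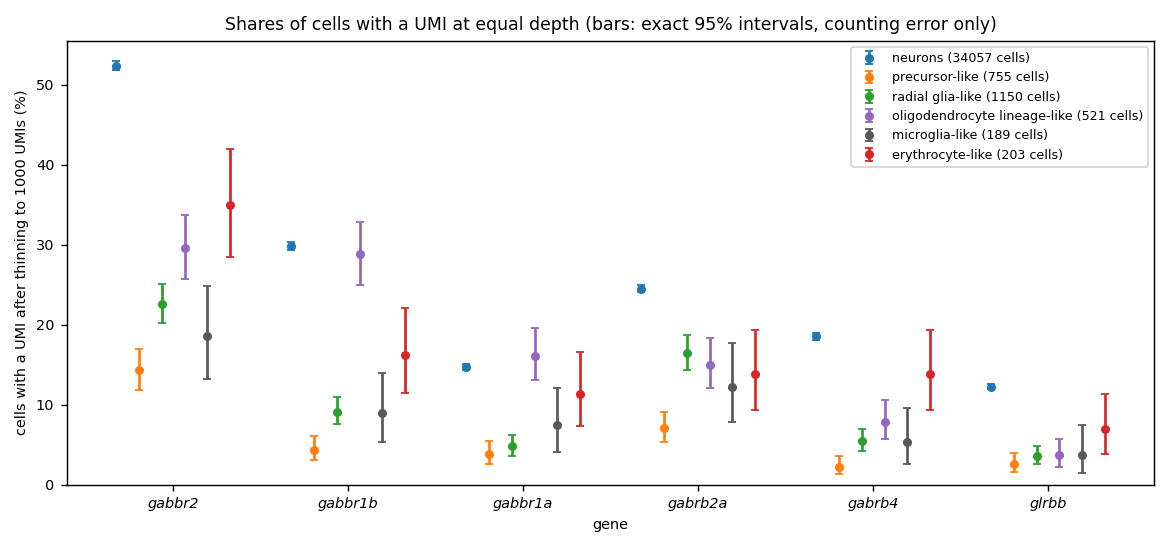
Share of cells with a UMI of each of 6 genes (y axis, percent) after thinning every cell to 1000 UMIs, by cell class, with exact 95% intervals that cover counting error only. For *gabbr2* the neurons stand at 52.4% and the erythrocyte-like background at 35.0%, and for *gabbr1b* the oligodendrocyte lineage-like cells (28.8%) stand beside the neurons (29.8%).

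Receptor genes were next compared between neurons that release GABA and those that release glutamate. Most of them, and the most abundant ones, did not differ by more than the test could call, while 8 of the 25 tested did. Higher in the inhibitory arm were *gabrd*, *gabra3*, *gabrg1*, *gabra4* and *gabrz*, 5 genes, and higher in the excitatory arm were *gabrp*, *gabra5* and *gabrr2a*, 3 genes. Counts were summed per arm and batch and tested across all genes with the quasi-likelihood test of edgeR. Batch was a block, and Benjamini-Hochberg adjustment was at 0.05. A p-value thus weighs the difference between the arms within batches against the variation left once batch levels are fitted. Of all 10865 genes tested, 15.5% were called higher and 20.2% lower in inhibitory neurons, so the members were called in a share close to the background. The median log2 difference was -0.03 over the tested members and -0.05 over all genes. The filter on low counts left out 9 members (*gabra2a*, *gabra6a*, *gabra6b*, *gabrb1*, *gabrr1*, *GABRR1* (1 of many), *gabrr3a*, *gabrr3b* and *glra4b*). In a sum over an arm, fewer cells with a transcript and less of it per cell cannot be told apart.

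The largest difference was that of *gabrp*, the gene of the pi subunit, which in mammals is best known from tissues outside the brain. Its level in excitatory neurons was 0.117 per 10000 in the lowest batch, 0.170 in the median and 0.368 in the highest batch. In inhibitory neurons the lowest was 0, the median 0.0569 and the highest 0.143. The excitatory level was the higher one in 11 of 11 batches, although the ranges overlapped. The difference was 5.19-fold in the fit (log2 -2.38 ± 0.16 SE, adjusted p = 4.27e-11, edgeR quasi-likelihood). It was still called but smaller, at log2 -1.38, when single cells were gated by their transmitter genes instead of by cluster.

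The alpha gene *gabra5* was also lower in inhibitory neurons in 11 of 11 batches. Excitatory levels ran from 0.0737 over a median of 0.254 to 0.375 per 10000, and inhibitory levels from 0 over 0.170 to 0.235. The ranges overlapped, and the fitted difference was 1.89-fold (log2 -0.92 ± 0.11 SE, adjusted p = 8.51e-07, edgeR quasi-likelihood). The rho gene *gabrr2a* was higher in excitatory neurons in 7 of 11 batches, with a log2 difference of -0.62 ± 0.12 SE (adjusted p = 0.000209, edgeR quasi-likelihood).

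In the other direction, *gabra3*, an alpha subunit gene, was higher in inhibitory neurons in 9 of 11 batches. Its inhibitory levels were 0.352 at the lowest, 0.649 at the median and 2.17 at the highest, and its excitatory levels 0.218, 0.443 and 1.07. The arms overlapped between batches, and the difference within batches was 1.80-fold (log2 0.85 ± 0.10 SE, adjusted p = 8.33e-07, edgeR quasi-likelihood). At equal depth, 12.3% of inhibitory and 5.66% of excitatory neurons had a UMI of *gabra3*.

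The delta gene *gabrd*, whose product in mammals sits mainly outside synapses, was low in both arms. Inhibitory levels had a lowest value of 0, a median of 0.116 and a highest of 0.262, and excitatory levels 0, 0.0667 and 0.158. They overlapped, with the inhibitory arm higher in 9 of 11 batches (log2 0.92 ± 0.15 SE, adjusted p = 3.38e-05, edgeR quasi-likelihood). At equal depth the shares of cells with a UMI of *gabrd* were 1.69% and 0.790%.

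A further 3 genes had smaller differences in the same direction. The alpha gene *gabra4*, which in mammals pairs with delta, had 0.595 ± 0.301 per 10000 in inhibitory and 0.397 ± 0.183 in excitatory neurons (SD, n = 11), was higher in 10 of 11 batches and differed by log2 0.49 ± 0.09 SE (adjusted p = 0.000135, edgeR quasi-likelihood). For *gabrz* the levels were 0.944 ± 0.455 and 0.644 ± 0.233 (SD, n = 11), again in 10 of 11 batches (log2 0.46 ± 0.11 SE, adjusted p = 0.00153, edgeR quasi-likelihood). The gamma gene *gabrg1* had 0.0980 ± 0.0667 and 0.0601 ± 0.0383 (SD, n = 11) and was higher in 8 of 11 batches (log2 0.70 ± 0.15 SE, adjusted p = 0.000955, edgeR quasi-likelihood).

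**Figure D3:**
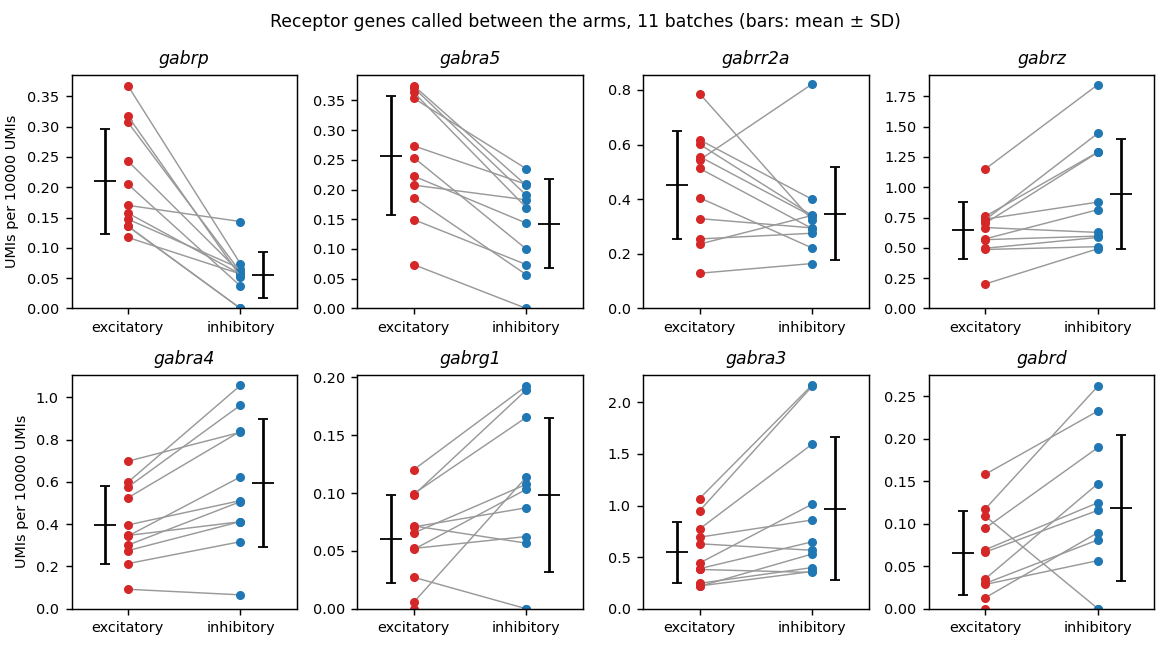
UMIs per 10000 of the 8 receptor genes called between the arms, with a point for each arm in each of 11 batches, lines joining the arms of a batch, and bars for mean ± SD. The line falls from the excitatory to the inhibitory arm in every batch for *gabrp* and *gabra5*, and rises in 9 of 11 batches for *gabra3*.

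In the reported fit, no glycine receptor gene and no GABA-B gene was called between the arms. The log2 difference of *glra1* was 0.22 (95% interval 0.05 to 0.39, adjusted p = 0.0572, edgeR quasi-likelihood), that of *gabbr2* 0.13 (0.01 to 0.25) and that of *glrbb* 0.15 (-0.02 to 0.33). The calls of the first 2 depended on the setting, since *glra1* was called in 5 other settings (0.23 to 0.29) and without batch 1, 3, 6, 7 or 8 (0.24 to 0.28), and *gabbr2* by DESeq2 (0.12), with cells of neighbouring tissues kept (0.17) and without batch 8 (0.19) or 11 (0.18). Without the filter, *gabra2a* (0.67) was called higher and *gabra6a* (-0.74) and *gabra6b* (-0.88) lower in inhibitory neurons. For the channel genes *gabrb2a* and *gabrb4* the intervals were -0.20 to 0.12 and -0.20 to 0.08. All 8 calls were kept whichever batch was left out, wherever the gene passed the filter. Of 11 such runs, *gabrd* passed it in only 7 and *gabrg1* in only 6. Without the batch term only *gabrp* and *gabra5* were called. With the gate on single cells the call of *gabra4* was lost (log2 0.30), and *gabrd* and *gabrg1* did not pass the filter, so their calls were not tested there.

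Other genes of the inhibitory synapse, counted as a list without the transmitter genes, stood beside this. Of 31 tested, 16 were higher in inhibitory neurons and 1 lower, with a median log2 difference of 0.31. The GABA transporter genes *slc6a1b* (log2 2.81 ± 0.17 SE) and *slc6a1a* (1.18 ± 0.13) were among them, as were *plcl1* (1.65 ± 0.17), whose product takes part in the traffic of GABA-A receptors, and *kctd8* (1.00 ± 0.11), an auxiliary subunit of GABA-B receptors. The chloride exporter genes *slc12a5a* and *slc12a5b* (0.35 ± 0.07 and 0.58 ± 0.10) and the gephyrin genes *gphna* and *gphnb* (0.31 ± 0.09 and 0.28 ± 0.09) rose by less. Only *trak2*, an adaptor of transport along microtubules, was lower (-0.36 ± 0.13).

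Along the neuronal lineage, receptor genes were higher in neurons than in precursor-like cells, which carry *neurod4* and *dlb*. Of the 19 members tested, 18 were called higher in neurons and 1, *glra1*, lower. Of all 7817 genes tested, 25.8% were called higher and 23.8% lower in neurons. The median log2 difference was 1.75 over the tested members and -0.02 over all genes. The other 15 members were too low to be tested, and a member that passed the filter by its level in neurons alone had to differ, so the count describes those tested and not the family. Sums were taken in the 8 batches with at least 20 precursor-like cells, of which there were 788 in all. A precursor-like cell had more UMIs than a neuron, with a median of 2748.

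The largest difference was in *gabrb4*. In neurons it ran from 0.863 over a median of 1.57 to 2.81 per 10000, and in precursor-like cells from 0 over 0.13 to 0.371. The ranges did not overlap, and the fitted difference was 6.95-fold (log2 2.80 ± 0.31 SE, adjusted p = 2.40e-08, edgeR quasi-likelihood). For *gabbr2* the neurons had 2.40 at the lowest, 6.61 at the median and 15.3 at the highest, and the precursor-like cells 0.235, 1.21 and 1.74, again without overlap (log2 2.15 ± 0.25 SE, adjusted p = 4.02e-08, edgeR quasi-likelihood). The glycine beta gene *glrbb* had 0.465, 1.1 and 2.02 in neurons and 0, 0.149 and 0.315 in precursor-like cells, and its groups did not overlap either (log2 1.95 ± 0.31 SE, adjusted p = 5.68e-06, edgeR quasi-likelihood).

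The smallest rise was that of *gabbr1a* (log2 0.93 ± 0.22 SE, adjusted p = 0.000913, edgeR quasi-likelihood). The call of *gabra5* (log2 1.33 ± 0.48) was lost without batch 10 (1.11) or batch 11 (1.17), and that of *gabrr2a* (1.38 ± 0.41) with at least 50 cells per sum (0.91). The other 16 were kept in each setting and left-out batch in which they passed the filter, except *gabbr1a* under a limit of at least 2-fold, and *gabra4* did not pass it without 2 of the 8 batches.

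The alpha gene *glra1*, which in adult mammals makes up most glycine receptors, stood apart. Its level was 0.207 at the lowest, 0.355 at the median and 0.592 at the highest in neurons, and 0.0601, 0.352 and 1.2 in precursor-like cells. The groups overlapped, and each class was higher in 4 of 8 batches. The fit gave log2 -0.74 ± 0.27 SE (adjusted p = 0.0259, edgeR quasi-likelihood), but the call was lost without batch 4, 6, 11 or 12 (log2 -0.45, -0.56, -0.66 and -0.47) and under each of the 9 other settings, where it ran down to -0.13 with at least 50 cells per sum. At equal depth, 5.03% of precursor-like cells and 4.05% of neurons had a UMI of *glra1*.

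Of the list of inhibitory synapse genes, here and below with the 4 transmitter genes *gad1a*, *gad1b*, *gad2* and *slc32a1* (50 genes in place of 46), 23 of 33 tested were higher in neurons than in precursor-like cells and 2 were lower, with a median log2 difference of 1.51. The transmitter genes *gad1b*, *gad2* and *slc32a1* were among the 23. Those lower were the glycine transporter gene *slc6a9* (-1.80 ± 0.26 SE) and *gabarapb* (-0.79 ± 0.20), of the family that links GABA-A receptors to trafficking and autophagy. The neuroligin genes *nlgn2a* and *nlgn2b*, whose products organize inhibitory synapses, were higher by 2.00 ± 0.26 and 1.90 ± 0.27.

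Cells earlier in the lineage had low sums as well. In progenitor-like cells the GABA-A sum was 3.39 ± 2.07 per 10000 (SD, n = 11) and the GABA-B sum 2.34 ± 1.59 (SD, n = 11), close to the 2.73 ± 1.09 and 2.26 ± 0.983 of precursor-like cells (SD, n = 8). All 4 means were below those of microglia-like cells, 7.49 ± 5.92 and 6.07 ± 7.20 (SD, n = 5), but they were over different sets of batches. Within batch 10 the progenitor-like sums, 5.99 and 4.10, were above the microglia-like 5.82 and 2.66, and in batches 1, 2, 8 and 11 they were below. Precursor-like sums were above the microglia-like ones in batch 1 and, for GABA-B, in batch 10, and below in batches 8 and 11. No member in either class lay above the intervals of both background classes, which does not settle *gabra6a*, for which microglia-like cells were no background. A pair of members went against the general order. The alpha gene *gabra6a* had a UMI in 11.0% of progenitor-like and 6.85% of precursor-like cells but in 1.00% of neurons, and after thinning in 4.00%, 3.58% and 0.446%. It was also found in 10.0% of microglia-like cells (4.76% after thinning), and in 1.3% of erythrocyte-like cells. Its level in progenitor-like cells varied from 0.0385 per 10000 in batch 5 to 1.86 in batch 3. The glycine alpha gene *glra4b* had a UMI in 2.00% of progenitor-like cells and 0.898% of neurons after thinning, beside 1.59% of microglia-like cells, and was chosen after its values were seen. These shares were not tested between classes. The level of *gabra6a* was below the filter against precursor-like cells, but it was called lower in neurons without the filter (log2 -2.43 ± 0.36 SE, adjusted p = 3.27e-10, edgeR quasi-likelihood) and, where it then passed the filter, without batch 1 (-2.80), 5 (-2.79) or 11 (-3.03).

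Radial glia-like cells, which in fish are both stem cells and the counterpart of astrocytes, had less of nearly every tested member than neurons. Of 21 tested in 8 batches, 20 were called higher in neurons and none lower, where 24.6% of all 10205 genes were called higher and 23.6% lower. The median log2 difference was 1.45 over the tested members and 0.01 over all genes. The exception was the alpha gene *glra2*, at 0.52 (95% interval -0.37 to 1.40, adjusted p = 0.362, edgeR quasi-likelihood). The calls were kept whichever batch was left out, including batch 8, which held most of these cells, except that *gabrp* was too low to be tested without that batch. The other 13 members did not pass the filter. As against precursor-like cells, a member that passed the filter by its level in neurons alone had to differ. The count thus describes the members tested and not the family.

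The call of *gabrp* rested on few counts in the glia. Radial glia-like cells had 2 UMIs of *gabrp* in batch 8, 1 each in batches 10 and 12 and 0 in the other 5, so that the gene passed the filter by its level in neurons (0.104 to 0.222 per 10000) and no fold is given. For *gabbr1b*, neurons ran from 1.35 over 2.97 to 5.37 and radial glia-like cells from 0 over 0.643 to 2.22, with overlap between batches but higher levels in neurons in 8 of 8 (log2 1.86 ± 0.29 SE, adjusted p = 4.45e-06, edgeR quasi-likelihood).

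For *gabrb2a* the difference from radial glia-like cells was smaller, at log2 0.94 ± 0.26 SE (adjusted p = 0.00333, edgeR quasi-likelihood). Neurons had 0.892, 2.73 and 4.69 at the lowest, the median and the highest, and radial glia-like cells 0.399, 1.08 and 2.69. The share of radial glia-like cells with a UMI of *gabrb2a* at equal depth, 16.4%, lay inside the intervals of the microglia-like (7.87% to 17.7%) and erythrocyte-like (9.37% to 19.3%) background. No other member exceeded both backgrounds in these cells either.

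Of the synapse list, 21 of 34 tested were higher in neurons than in radial glia-like cells, the 4 transmitter genes among them, and 6 lower, with a median log2 difference of 1.14. Genes that clear transmitter were among those higher in the glia. They were the glycine transporter *slc6a9* (-4.40 ± 0.31 SE), the GABA transporter *slc6a1b* (-1.59 ± 0.40) and *abat*, the enzyme that breaks down GABA (-1.29 ± 0.27). The GABA transporter *slc6a1a* went the other way (1.94 ± 0.28).

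Neurons were also set against oligodendrocyte lineage-like cells, and most of the tested members were higher in neurons. Of 18 members tested in 9 batches, 13 were called higher in neurons and none lower, where 20.5% of all 5981 genes tested were called higher and 17.4% lower. The median log2 difference was 0.98 over the tested members and 0.13 over all genes. With at least 50 cells per sum, 12 of 16 tested were called, 11 higher and 1 lower. These 559 cells had a median of 2492 UMIs, and 16 members did not pass the filter. Neuronal transcripts were also found in them. The level of *elavl3* over all cells was 6.44 per 10000, or 38.4% of that in neurons, beside 3.08 in radial glia-like, 5.18 in microglia-like and 6.20 in erythrocyte-like cells, and 6 of the 13 neuron markers reached at least 0.5 of their level in all other cells together, against 0 in radial glia-like cells. The part of these transcripts in the differences was not tested.

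Genes with the largest differences were *gabra4* (log2 1.88 ± 0.47 SE, adjusted p = 0.00413, edgeR quasi-likelihood), *gabrr2a* (1.77 ± 0.43, adjusted p = 0.00333) and *glrbb* (1.70 ± 0.30, adjusted p = 0.000276). Over all oligodendrocyte lineage-like cells, *gabra4* and *gabrr2a* were each at 0.110 per 10000, beside 0.529 and 0.393 in neurons. Their differences thus rested on few counts in that lineage. Here too, a member that passed the filter by its level in neurons alone had to differ. For *glrbb*, neurons had 0.465 at the lowest, 1.06 at the median and 2.02 per 10000 at the highest, and oligodendrocyte lineage-like cells 0.0846, 0.267 and 1.27. The groups overlapped, and neurons were higher in 8 of 9 batches. The channel gene *gabrb4* was called with a smaller difference (0.98 ± 0.22).

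The GABA-binding GABA-B genes were not called. In neurons *gabbr1b* had 1.35 at the lowest, 2.25 at the median and 5.37 at the highest, and in oligodendrocyte lineage-like cells 2.02, 3.27 and 4.11. The oligodendrocyte lineage was higher in 5 of 9 batches, and the log2 difference was -0.19 (95% interval -0.58 to 0.20, adjusted p = 0.473, edgeR quasi-likelihood). That of *gabbr1a* was 0.14 (-0.25 to 0.53), while *gabbr2* was called at 0.68 ± 0.21 SE (adjusted p = 0.0169, edgeR quasi-likelihood), a call lost without batch 4 (0.58) and without the batch term (0.67). At equal depth, 28.8% of oligodendrocyte lineage-like cells and 29.8% of neurons had a UMI of *gabbr1b*, against 8.99% of microglia-like and 16.3% of erythrocyte-like cells. It was the single member above the intervals of both background classes in this lineage.

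For *gabrb2a*, also not called against the oligodendrocyte lineage, the log2 difference was 0.60 (95% interval 0.14 to 1.07, adjusted p = 0.0516, edgeR quasi-likelihood), and for *glra1* it was 0.29 (-0.29 to 0.87). The result for *gabrb2a* depended on the setting. It was called higher in neurons without the filter (1.12), without doublet removal (0.78), without the neuron clusters of neither arm (0.61) and without batch 5, 8 or 10 (0.70 to 0.74). The calls of *gabra3* (0.91) and *GABRA2* (0.98) did not hold without some batches, the former being lost without batch 4 (0.80) or 5 (0.82) and the latter without batch 3 (0.79) or 4 (0.91), and both were lost without the batch term. The difference of *gabra3* grew to 1.62 without doublet removal and to 1.61 with at least 50 cells per sum, and that of *gabrz* (1.51 ± 0.33 SE) to 2.30 in the latter. Of the synapse list, 11 of 31 tested were higher in neurons, with *gad1b*, *gad2* and *slc32a1* among them, and 6 lower, among the latter *slc6a9* (-2.01 ± 0.30 SE) and *kctd12.1* (-1.77 ± 0.39), an auxiliary subunit of GABA-B receptors.

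A cluster named by *fat2* and other markers of the torus longitudinalis (TL), whose granule cells send glutamatergic fibres to the tectum, was set against the excitatory arm. It held 352 cells, of which 66 above 0.8 (log-normalized) of *gad1b* were left out. Of the 286 that remained, 6 batches had at least 20. Of 18 members tested, with 16 below the filter, 2 were called higher (*gabbr1a* and *gabra4*) and 1 lower (*glra3*) in the TL-like cells, where 3.24% of all 5951 genes were called higher and 3.53% lower. A further 5 had an unadjusted p under 0.05 and were not called. The count depended on the processing, with 14 of 18 called (7 higher and 7 lower) without doublet removal, where the rebuilt cluster held 458 cells, 8 of 21 with cells of neighbouring tissues kept, 5 of 34 without the filter, 1 without the batch term, 1 without batch 8, 2 without batch 10 and 2 with at least 50 cells per sum. The family sums were 26.5 ± 4.38 per 10000 for GABA-B, 18.7 ± 4.95 for GABA-A and 3.54 ± 1.60 for glycine (SD, n = 6).

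The level of *gabbr1a* in TL-like cells was 3.4 per 10000 at the lowest, 6.32 at the median and 10.1 at the highest, and in the excitatory arm 1.21, 2.0 and 2.65. The groups did not overlap, and the fitted difference was 3.08-fold (log2 1.63 ± 0.24 SE, adjusted p = 0.000184, edgeR quasi-likelihood). At equal depth, 34.3% of TL-like and 14.3% of excitatory cells had a UMI of *gabbr1a*. The call was kept whichever batch was left out and was lost with at least 50 cells per sum (log2 1.73).

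For *gabra4*, TL-like cells had 0.6 at the lowest, 1.17 at the median and 3.13 at the highest, and excitatory cells 0.301, 0.435 and 0.698. The TL-like level was the higher one in 6 of 6 batches, with overlapping ranges (log2 1.45 ± 0.32 SE, adjusted p = 0.00712, edgeR quasi-likelihood). These sums rested on 2 to 19 UMIs of *gabra4* per batch, and the call was lost without batch 8 (1.07), with at least 50 cells per sum (0.98), without the filter on low counts (0.97) and without the batch term (1.53). Without doublet removal the difference was 2.57.

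The glycine alpha gene *glra3* was lower in 5 of 6 batches. TL-like levels ran from 0 over a median of 0.25 to 1.43, and excitatory levels from 0.622 over 1.17 to 1.37, and the groups overlapped. The log2 difference was -1.54 ± 0.45 SE (adjusted p = 0.0389, edgeR quasi-likelihood). This call was lost without batch 1 (-1.22), 8 (-1.48), 10 (-1.44) or 12 (-1.64) and without the batch term (-1.42), and the difference was -2.33 without batch 11. It was also larger, at -3.15, with cells of neighbouring tissues kept, at -2.58 without doublet removal and at -3.61 with at least 50 cells per sum.

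The alpha gene *gabra6b*, whose mammalian relative marks cerebellar granule cells, did not pass the filter. Its level in TL-like cells was 2.31 in batch 1, 3.62 in batch 3, 0.481 in batch 8, 0.171 in batch 10, 0 in batch 11 and 0.728 in batch 12. In the excitatory arm of these batches it did not exceed 0.143, so that 5 of 6 batches were higher in TL-like cells, batch 10 by little, and batch 11 was lower. The values rested on 24, 11, 2, 2, 0 and 9 UMIs in the same order. At equal depth, 9.06% of TL-like cells had a UMI of *gabra6b* (exact 95% interval 5.83% to 13.3%), against 0.582% of excitatory and 0.529% of microglia-like cells, and none of the erythrocyte-like cells. Without doublet removal *gabra6b* passed the filter and was called higher in TL-like cells (log2 4.64 ± 0.29 SE, adjusted p = 1.38e-14, edgeR quasi-likelihood). The alpha gene *glra1* was higher in TL-like cells in 5 of 6 batches but was not called (log2 1.16, 95% interval 0.45 to 1.87, adjusted p = 0.0582, edgeR quasi-likelihood). Of the synapse list, 1 of 28 tested genes was called, *gabarapl2* (0.89 ± 0.26 SE), a trafficking and autophagy gene, and the median log2 difference was -0.09.

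**Figure D4:**
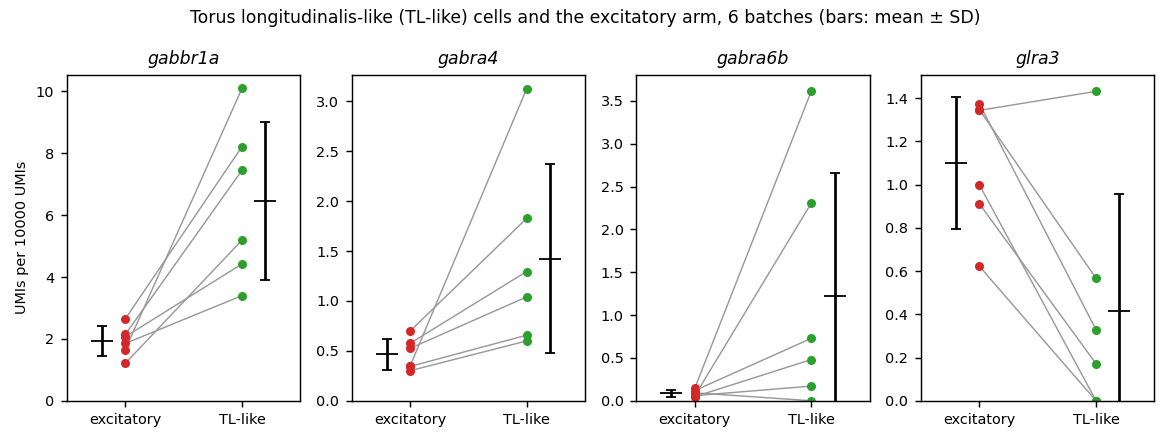
UMIs per 10000 in torus longitudinalis-like cells and in the excitatory arm, with a point for each of 6 batches, lines joining the classes of a batch, and bars for mean ± SD. All points of *gabbr1a* in TL-like cells (3.4 to 10.1) lie above those of the excitatory arm (1.21 to 2.65), while *gabra6b* in TL-like cells spreads from 0 to 3.62.

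Within the arms, the levels of several subunits differed between clusters, some with 1 cluster well above the next and others with near ties. The 24 neuron clusters, named here by their leading genes, were made without the receptor genes, and their values are a description. A cluster's level is a mean over its own batches, which numbered 5 for the *INSM2* and 11 for the *etv1* cluster. It covers all cells of the cluster, including those with the opposite transmitter gene that were left out of the arms and the TL-like class above. Levels were higher in batches 10 to 12, and the part of the differing batches in the order of clusters was not tested. An inhibitory cluster led by *npy* and *npr1a* (2990 cells) had the highest level of several commonly found members. There *gabrz* reached 3.08 ± 1.54 per 10000 (SD, n = 10 batches), with a UMI in 43.6% of its cells, and *gabra4* 1.72 ± 0.691. For *gabra4* the TL-like cluster (1.53 ± 1.01) and an inhibitory cluster led by *rpp25b* (1.52 ± 0.491) followed within its spread. The *npy* cluster was also first for *GABRB2* (1 of many) (2.76 ± 1.01), and by little for *gabrb4* (2.72 ± 0.972, before 2.53 ± 0.794 in the cluster of *uts1* and *slit3*). For *gabbr2* it had the same level (14.3 ± 5.91) within the spread as the TL-like (14.2 ± 2.67) and *uts1* clusters (14.0 ± 5.43). The second cluster for *gabrz* was an excitatory one led by *itpr1b*, at 1.66 ± 0.641.

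The level of *gabrp* was highest in a single excitatory cluster. The cluster led by *etv1* and *foxb1a* (3307 cells) had 0.738 ± 0.296 per 10000 (SD, n = 11), from 0.255 to 1.21, and the next, led by *rnf220a*, 0.273 ± 0.172. The median over clusters was 0.0864. For *gabra5* the leading cluster was that of *uts1* and *slit3*, at 0.523 ± 0.388 (SD, n = 8), but an inhibitory cluster led by *kcnh2a* followed with 0.505 ± 0.238. The same *uts1* cluster was first for *GABRA2* (1.02 ± 0.382), with other clusters within its spread. An excitatory cluster led by *pde11al* and *megf11* was first for *gabrr2a* (1.04 ± 0.610). For *gabrb2a* it (5.53 ± 1.39) and an inhibitory cluster led by *nr6a1b* among others (5.50 ± 1.14) could not be ordered.

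The 3 clusters highest in *gabra3* were inhibitory. They were led by *INSM2*, at 3.25 ± 2.38 per 10000 (SD, n = 5), by *dmbx1a*, at 3.09 ± 1.43 (SD, n = 6), and by *pcbp3*, at 2.28 ± 1.18 (SD, n = 8), against a median over clusters of 0.725. The *dmbx1a* cluster was also the highest for *gabrg1* (0.372 ± 0.208) and *glrbb* (2.38 ± 0.459). The glycine alpha gene *glra4b* was low but also highest there (0.215 ± 0.152), with the TL-like cluster (0.183 ± 0.139) within its spread. Other glycine alpha genes peaked elsewhere. An inhibitory cluster of 690 cells led by *cart3* and *nxph2b* was first for *glra1* (1.09 ± 0.345), *glra2* (0.597 ± 0.525) and *glra4a* (1.59 ± 0.827, SD, n = 7 for each), and for the beta gene *glrba* (0.331 ± 0.204), with the *kcnh2a* cluster close behind for *glra1* (1.04 ± 0.433). For *glra3* it was the *pcbp3* cluster (2.61 ± 1.51) before that of *crhbp* (2.43 ± 0.959), both inhibitory. The TL-like cluster led for *gabbr1a* (6.01 ± 2.77), *gabra6b* (1.24 ± 1.35) and *gabrd* (0.362 ± 0.370, SD, n = 6 for each). For *gabbr1a*, inhibitory clusters led by *kcnh2a* (4.86 ± 1.48) and *rpp25b* (4.65 ± 1.84) followed within its spread. The SD of *gabra6b* and of *gabrd* exceeded the mean. For *gabrd* the *npy* cluster came next, within the spread, and for *gabra6b* the *pde11al* cluster, at 0.181 ± 0.168.

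**Figure D5:**
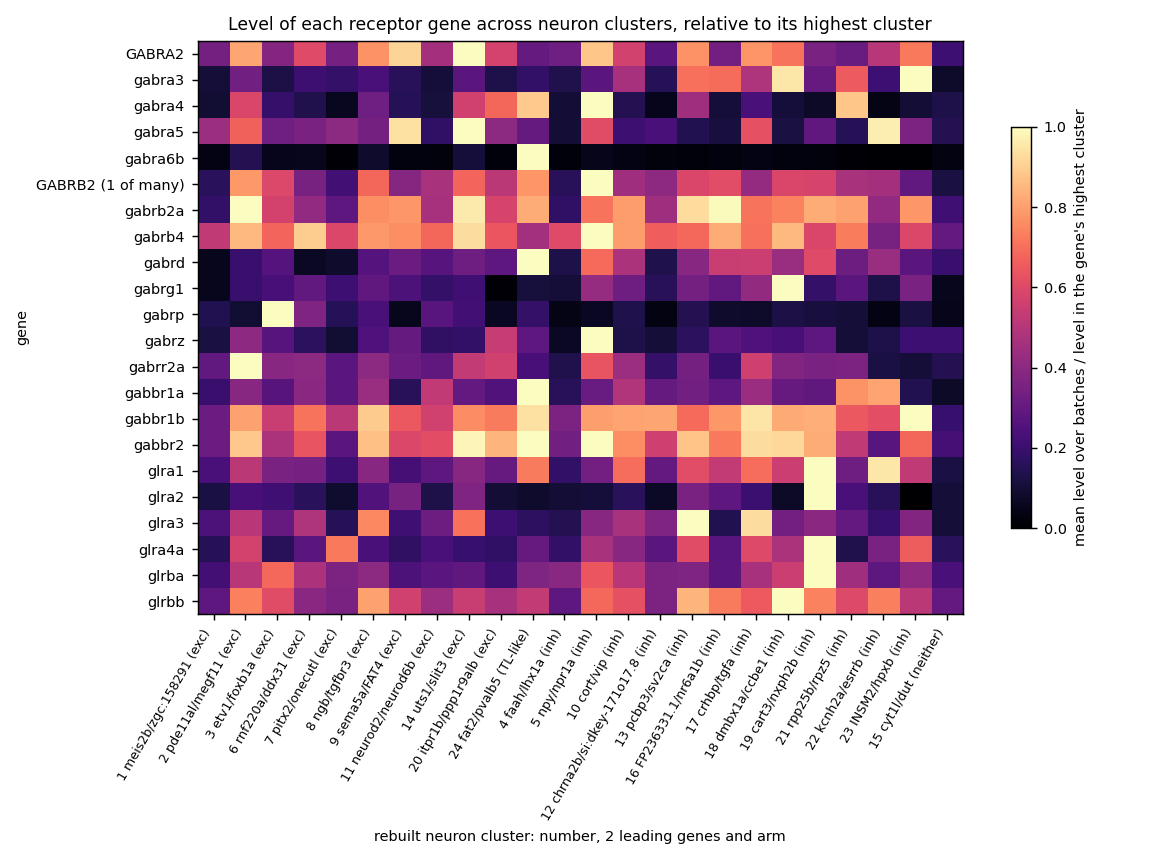
Level of receptor genes found in at least 2% of neurons, and of *gabra6b* (rows), in each of the 24 neuron clusters (columns, with 2 leading genes and the arm), as a fraction of the gene's highest cluster. The column led by *npy* is full for *gabrz* and *gabra4*, that of *etv1* stands alone for *gabrp*, and that of *cart3* is full for *glra1*, *glra2* and *glra4a*.

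Among the genes reported singly, levels across the 24 clusters went together most closely for abundant ones by Pearson correlation. By Spearman correlation the closest pair was *gabrg1* with *gabra3* (0.769, Pearson 0.752), of which *gabrg1* was low. The Pearson correlation was 0.843 (Spearman 0.701) for *gabrb2a* with *GABRB2* (1 of many), 0.838 (0.665) for *gabrb2a* with *gabbr2*, 0.826 (0.737) for *gabbr1b* with *gabbr2* and -0.18 (-0.10) for *gabra5* with *gabra3*. Clusters share batches, and their depth differed, so these values are descriptions.

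In single cells, cells with UMIs of both genes of a pair were counted and compared with the count that independent detection would give, computed separately for 5 depth strata of every batch. Clusters were not held fixed. Genes that are high in the same cluster can thus exceed the expected count without going together inside that cluster. In excitatory neurons the median ratio over 171 pairs was 1.08. The alpha gene *gabra4* was found with the rho gene *gabrr2a* in 145 cells where 91.0 were expected, a ratio of 1.59 that ran from 1.23 to 2.12 in the 5 batches with enough cells. With *gabra5* its ratio was 1.53. In the order of coding genes of the RefSeq annotation, which is of another genome build, *gabrb4* and *gabra3* are adjacent, and their ratio was 1.11 in excitatory and 1.07 in inhibitory neurons.

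In inhibitory neurons high ratios were found for subunits that peaked in the *npy* cluster, and the part of this cluster in the ratios was not tested. The pair of *gabra4* and *gabrz* was found in 590 cells where 263 were expected, a ratio of 2.24, and *gabra4* with *GABRB2* (1 of many) had 1.58, against a median of 1.07 over 153 pairs. For *gabra4* with *gabrz* the ratio lay between 1.22 and 2.63 in 4 batches. The lowest was that of *glra1* with *gabrz*, 0.855, below 1 in each of the 4 batches with enough cells.

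Neurons of the 2 ages were compared with the instrument as a covariate. No member of 31 tested was called at 7 against 6 dpf, where 0% of all 15911 genes tested were called higher and 0% lower. Without adjustment, 4 members had a p under 0.05 in edgeR and 6 in DESeq2, which called no member either. The largest differences were those of *gabrd* (log2 1.07 ± 0.36 SE, adjusted p = 0.516, edgeR quasi-likelihood), *gabra6b* (1.05 ± 0.51, adjusted p = 0.627) and *gabra4* (1.03 ± 0.28, adjusted p = 0.5). In neurons *gabra4* was at 0.273 ± 0.133 per 10000 at 6 dpf (SD, n = 4), from 0.0949 to 0.388, and at 0.576 ± 0.149 at 7 dpf (SD, n = 7), from 0.389 over a median of 0.556 to 0.758, and the ages did not overlap. For *gabrd* the ranges were 0 to 0.0902 and 0.0674 to 0.191, which overlapped. Of the most abundant members, *gabbr2* differed by log2 0.19 (95% interval -0.29 to 0.66) and *gabrb4* by 0.08 (-0.32 to 0.49). None of the 45 tested genes of the synapse list was called.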

How the data were processed

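Raw UMI counts per gene and barcode (10x Chromium 3′) were deposited by the authors, with technical replicas of some batches processed together. The submitters' processing notes name Cell Ranger 7.1.0 and GRCz11. No normalization had been applied. The label line of batch 8 that gives 6 dpf was overruled by its age label. Here, 42 immediate early genes were removed, doublets were scored in each lane against artificial ones and removed in the share that the study states, so their number is no finding, and cells were clustered on other genes with scanpy 1.11.5 (Python 3.11.15). Both lanes of batch 11 were pooled. Neuron clusters were excitatory where the share with *slc17a6a* or *slc17a6b* was at least 2 times that with *gad1b*, inhibitory in reverse, and cells above 0.8 (log-normalized) of the opposite gene were left out. Class names were rebuilt from markers, so class sizes may differ from the study's. Class-by-batch sums of at least 20 cells were tested with edgeR 4.0.16 (TMM, filterByExpr, R 4.3.3), with batch as block, or for ages with the instrument as covariate. DESeq2 1.42.0 was an alternative. The test was tested on simulated data. A gene is named if called, found in at least 10% of any class, named by the study or at 0. Some members are counted but not reported singly here. The members and lists were chosen with earlier results of these data known. RefSeq names matched 30 of 34 members. Batches 1 to 8 and 10 to 12 differ in instrument by elimination. The median number of UMIs per cell, 1999 in neurons, limits what a count of 0 can show.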

Additional observations from a re-analysis of the deposited data

Results flagged for a closer look

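Among 54 groups of batches and genes examined, 1 stood out. In neurons at 7 dpf, *gabra6b* reached 0.260 UMIs per 10000 in batch 3, while the other 6 of the 7 batches lay between 0.0456 and 0.132. The gap to the nearest batch was 0.598 of the whole range. Chance alone gives about 1 such batch in 20 groups. Batch 3 also had the highest level of *gabra6b* in torus longitudinalis-like cells, 3.62 per 10000, and the part of these cells in the value of all neurons was not tested.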

How the results depend on the processing

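Settings other than those reported moved some counts of called members. Between inhibitory and excitatory neurons, 8 members became 1 with a limit of at least 2-fold, 2 without the batch term and 5 with the gate on single cells, and 6 to 11 when a batch was left out. Against oligodendrocyte lineage-like cells, 13 became 7 with the 2-fold limit, and 10 to 14 without a batch. For torus longitudinalis-like cells, 3 became 5 without the filter on low counts, 14 without doublet removal, 8 with cells of neighbouring tissues kept and 1 without the batch term, and ran from 1 (without batch 8) to 4 without a batch, and the cause was not tested. When a batch was left out, the counts ran from 17 to 21 against precursor-like and from 19 to 21 against radial glia-like cells, and under the other settings from 16 (at least 50 cells per sum) to 22 (no filter) and from 18 (the 2-fold limit) to 24 (no filter). Between ages they stayed at 0 in edgeR and DESeq2. With thinning to 500 UMIs, 9 members in place of 14 were found in at least 5% of neurons. Members called in the reported fits were set against their reported value in 1084 runs, each a setting or left-out batch in which they were tested. The call was kept in 1027, lost in 57 and turned around in 0. Members called only in other runs, such as *glra1* between the arms, are not in this count. DESeq2's size factors moved the median log2 difference of all genes from -0.02 to 0.16 against precursor-like and from 0.01 to 0.17 against radial glia-like cells. Without the filter it became 0.47, 0.50 and, against oligodendrocyte lineage-like cells, 0.61, where, among others, *gabbr2* (1.19), *gabrb4* (1.49), *gabra3* (1.47) and *GABRA2* (1.5) then differed by over 1.5 times the reported value. Leaving out the neuron clusters of neither arm was added after seeing the data and moved no count by over 1.5 times. No paired analysis of the 2 ages was possible because they share no batch numbers. Classes were tested within batches, except in the setting without the batch term. Shares of cells and levels over all cells were pooled over batches.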
